A study of Mus musculus with 6 samples.

Results

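The genes described here are the kinesin and intraflagellar transport genes of mouse spermatids: 58 genes out of 18193 named on the array, read by 132 probe sets. They were chosen by gene name, not by their signal. The set holds 40 genes for kinesin heavy and light chains and 18 genes for intraflagellar transport (IFT) proteins and subunits of the dynein-2 motor.

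By the labels, RNA came from elongating spermatids, the post-meiotic male germ cells that are building the sperm tail, in male ICR mice labelled wild type and adult. At 5 weeks of age the mice received a lentiviral vector that also encoded green fluorescent protein (GFP), and GFP-positive cells were sorted 1 week later. There were 3 groups of 2 arrays, all GFP-marked: the empty pSilencer vector (control), an shRNA against Caf1 (shCaf1) and an shRNA against Miwi (shMiwi). Miwi (Piwil1) is the Piwi protein that binds piRNAs in these cells, and Caf1 (Cnot7) is a deadenylase. The labels call the arrays of a group biological replicates. They do not say how many mice each array represents, so the spread between 2 arrays is the only replicate spread available.

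Kinesins are motor proteins that walk along microtubules with vesicles, chromosomes or protein complexes, and some of them take microtubules apart. Intraflagellar transport is the traffic that builds cilia and flagella: kinesin-2 motors carry trains of IFT-B and IFT-A proteins outward along the axoneme, and dynein-2 carries them back. In spermatids, IFT proteins and kinesins also travel on the manchette, a skirt of microtubules around the elongating nucleus, and loss of several of them leaves mice with short or malformed sperm tails.

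The control arrays stood apart from the rest. Every array had been scaled to the same mean signal, but the spiked hybridization controls read 82.3 and 16.2 times their mean shRNA-array level on control arrays 1 and 2, against 0.806 to 1.20 with shRNA. Of all signal, the top 100 probe sets took 52.6% and 29.5% on the control arrays and 5.85% to 7.25% on the shRNA arrays. The median signal of the non-control probe sets was 305 and 216 on control arrays 1 and 2 and 70.7 to 79.9 on the shRNA arrays. The median of 10 defining transcripts of elongating spermatids lay at the 99.0th to 99.7th percentile of the shRNA arrays and the 99.5th of control 2, but at the 29.0th of control 1. Transcripts that define the labelled cell type were thus low on control 1. On the log2 scale, over the probe sets tested, control 1 correlated with the shRNA arrays at 0.04 to 0.07 and control 2 at 0.40 to 0.46. The shRNA arrays correlated with each other at 0.97 to 0.98. The targeted Piwil1 read 21881 and 22442 with shCaf1 and 9780 and 10392 with shMiwi, a log2 difference of -1.14 ± 0.10 (SE; limma adjusted p = 0.00132), whereas Cnot7 read 3633 and 4330 with shCaf1 and 4365 and 5012 with shMiwi, at 0.24 ± 0.13 (limma adjusted p = 0.304), and did not pass. Piwil1 and Cnot7 read 1445360 and 2003570 on control array 1 and 292542 and 188877 on control array 2, so neither knockdown was measured against the controls here. The shRNA groups are therefore compared with each other first, and the controls are taken afterwards, each on its own as well as together.

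Most kinesin and IFT genes gave strong, reproducible signal on the shRNA arrays. On these arrays pachytene spermatocyte markers had a median at the 97.9th to 98.5th percentile and Leydig cell markers at the 95.5th to 96.5th. Sertoli cell markers had theirs at the 79.9th to 84.0th and spermatogonium markers at the 78.3rd to 81.1st. Endothelial markers had theirs at the 46.7th to 56.7th. The members' signal is therefore not assigned to elongating spermatids alone. Signals of different probe sets cannot be compared as amounts of RNA, so each gene is placed by the percentile of its brightest probe set among the 45037 non-control probe sets of an array. That probe set was the one with the highest mean on the shRNA arrays themselves, which places every gene with several probe sets high. The median member lay at the 85.7th percentile averaged over the 4 shRNA arrays. Of the 58 genes, 22 lay above the 90th percentile and 6 below the 50th. With 1 probe set per gene for all genes, the median member lay at the 75.1st percentile. Replicates lay close together, and over the members the median absolute log2 difference of replicates was 0.139 for shCaf1, 0.172 for shMiwi and 1.19 for the controls.

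By these percentiles, which describe probe sets and not amounts of RNA, all 18 IFT and dynein-2 genes lay between the 82.6th and the 98.9th percentile, and 13 of them lay above the 90th. Kinesins ranged from the 12.2nd to the 97.6th percentile, with 9 of 40 above the 90th.

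**Figure D1:**
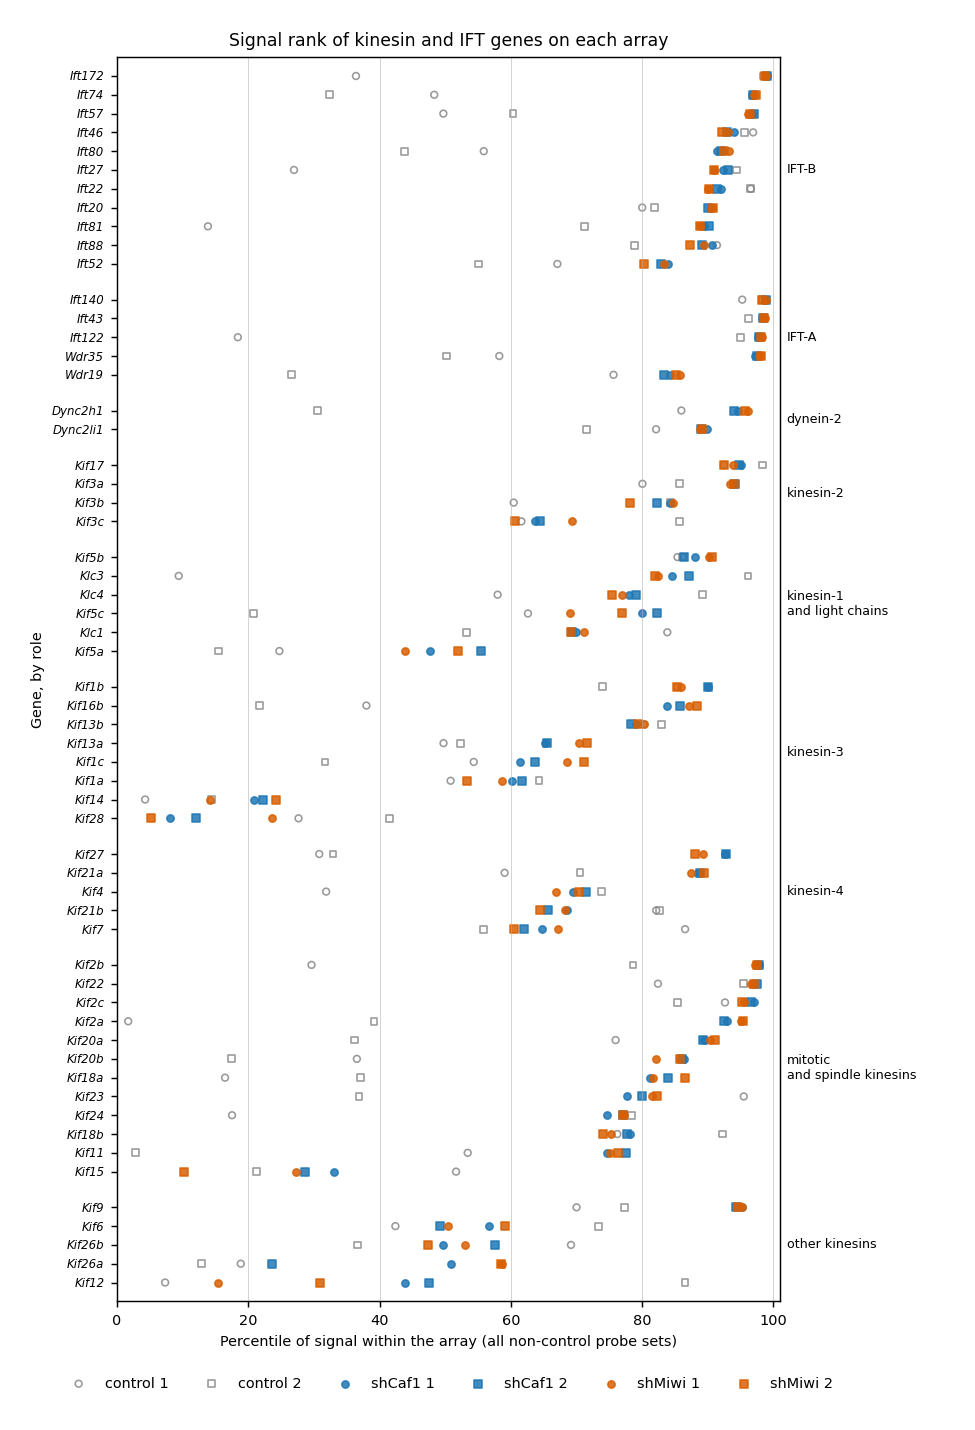
Signal percentile of each of the 58 genes on each of the 6 arrays, grouped by role; the horizontal axis is the percentile among the 45037 non-control probe sets of that array. The shRNA arrays cluster tightly at the right for the IFT and dynein-2 genes, between the 82.6th and 98.9th percentile on average, while the control arrays scatter.

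IFT-B is the larger subcomplex of the train and binds the outward motor. Its 11 genes had a median at the 91.8th percentile. Ift172, the largest IFT-B protein, read 11349 and 12259 with shCaf1 and 9396 and 9016 with shMiwi, the highest placed of all members at the 98.9th percentile. Both shMiwi arrays lay below both shCaf1 arrays, but the log2 difference of -0.36 ± 0.10 missed the threshold (limma adjusted p = 0.0663). Ift74, which with Ift81 forms a tubulin-binding module, read 5112 and 5532 with shCaf1 and 5250 and 5820 with shMiwi, and its groups overlapped. Ift81 read 1632 and 1785 with shCaf1 and 1573 and 1558 with shMiwi. Its shMiwi arrays were lower by little, with a log2 difference of -0.12 ± 0.12.

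Ift88, needed to assemble the sperm tail, read 1873 and 1555 with shCaf1 and 1677 and 1339 with shMiwi. Ift20, the IFT protein that also sits at the Golgi, read 1855 and 1755 with shCaf1 and 1927 and 1955 with shMiwi. The difference of Ift88 was -0.19 ± 0.16 and that of Ift20 was 0.10 ± 0.12 on the log2 scale, and neither passed. Ift27, a small GTPase of the complex, read 2326 and 2644 with shCaf1 and 1982 and 2005 with shMiwi, at -0.31 ± 0.12 (limma adjusted p = 0.157). Its arrays did not overlap, and the difference did not pass. Ift57 showed the same arrangement, with 5286 and 5963 against 4300 and 4827 and a log2 difference of -0.30 ± 0.12.

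The IFT-A genes encode the subcomplex that serves return traffic and the entry of membrane proteins. Their probe sets had a median at the 98.0th percentile. Ift140 read 9831 and 11055 with shCaf1 and 9296 and 7710 with shMiwi. Ift43 read 9240 and 9210 with shCaf1 and 8751 and 8425 with shMiwi. Both were lower on each shMiwi array, at -0.30 ± 0.12 and -0.10 ± 0.10 on the log2 scale, without passing. Ift122 stayed within 6587 to 7476 on all 4 arrays, and Wdr35 within 5863 to 7165. Wdr19, the lowest placed of the IFT-A genes at the 84.6th percentile, read 966 and 875 with shCaf1 and 1155 and 1077 with shMiwi. Its difference of 0.27 ± 0.14 did not pass either.

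Dync2h1, the heavy chain of the return motor dynein-2, read 3351 and 3071 with shCaf1 and 4271 and 4166 with shMiwi. The shMiwi arrays were both higher, by 0.39 ± 0.11 on the log2 scale (limma adjusted p = 0.0685), the highest value among the IFT and dynein-2 genes and short of the threshold. Its partner Dync2li1, the light intermediate chain, read 1703 and 1522 against 1566 and 1611 and did not separate the groups.

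Kinesin-2 motors drive outward IFT. Kif3a, a motor subunit of the heterotrimer, read 2915 and 3110 with shCaf1 and 2747 and 3039 with shMiwi. Its partner Kif3b read 977 and 793 with shCaf1 and 1058 and 583 with shMiwi, and for both genes the groups overlapped. Kif17, the homodimeric kinesin-2 known in spermatids for moving the transcriptional coactivator ACT, read 3654 and 3467 with shCaf1 and 2909 and 2450 with shMiwi. Both shMiwi arrays were lower, at -0.41 ± 0.13 on the log2 scale (limma adjusted p = 0.0844), which did not pass. Kif3c, the alternative partner of Kif3a, was dim, at 191 and 192 against 307 and 145, and its shMiwi arrays fell on either side of the shCaf1 arrays.

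Among kinesin-1 genes, which encode the general cargo motor and its light chains, none passed in limma, with 3 at an unadjusted p under 0.05. Kif5b, the widely expressed heavy chain, read 1416 and 1165 with shCaf1 and 1824 and 1926 with shMiwi, at 0.54 ± 0.14 on the log2 scale (limma adjusted p = 0.0535). Kif5c, another heavy chain, read 669 and 793 with shCaf1 and 299 and 529 with shMiwi, at -0.85 ± 0.25 (limma adjusted p = 0.0753). The groups did not overlap for either gene, and the values pointed opposite ways. Klc3, the light chain that binds outer dense fibres of the sperm tail, read 992 and 1242 with shCaf1 and 869 and 805 with shMiwi, at -0.40 ± 0.16. That difference did not pass.

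Kif9 is a motor of the axoneme's central pair. It read 3696 and 3184 with shCaf1 and 3620 and 3334 with shMiwi, a log2 difference of 0.02 ± 0.12, and the groups overlapped. Kif6, a kinesin of the same family, was near the middle of the array at the 53.8th percentile. Its signals were 116 and 70 with shCaf1 and 82 and 129 with shMiwi.

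The lowest placed members were Kif28 at the 12.2nd percentile, Kif14 at the 20.4th, Kif15 at the 24.8th, Kif12 at the 34.4th, Kif26a at the 47.9th and Kif5a at the 49.7th. Kif14 and Kif15 act in cytokinesis and on the mitotic spindle. The first 4 had mean signals below the 40th percentile of the shRNA arrays and were not tested. The 12 genes grouped as mitotic and spindle kinesins, Kif15 included, had a median at the 84.2nd percentile, against the 85.7th for all members. The highest of these were Kif2b, a microtubule depolymerase, at the 97.6th and Kif22, a chromosome-binding kinesin, at the 97.0th. Other Kif22 probe sets lay at the 66.5th and 78.8th.

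Promoter sequences show one feature that did not enter the choice of genes. Ciliary genes are often driven by RFX transcription factors, which bind the X-box, a motif made of inverted repeats. One arm of it, GTTGCC or its reverse complement GGCAAC, was searched on both strands of 300 bases, from 250 before to 50 after the start of each gene, in RefSeq sequence of GRCm38.p6. Of the 58 members 48 had a promoter sequence, and 18 of these (37.5%) held the arm, against 14.1% of 27025 genes in the table and 14.7% of 14369 genes on the array. It was present in 7 of 14 IFT and dynein-2 genes (50%), 11 of 34 kinesins (32.4%), 3 of 4 kinesin-2 genes and 0 of 4 kinesin-4 genes. Among the IFT and dynein-2 genes, it lay before the start in Ift57, Ift27 and Ift140. In Ift172, Ift88, Wdr35 and Dync2h1 it lay only in the 50 bases after the start, as it did in the kinesins Kif1a and Kif2a.

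The promoters of 5 IFT and kinesin-2 genes are printed because they show the arm near the start of genes for the train and for its motors; capitals mark it, and lower case is the sequence around it.
Ift57: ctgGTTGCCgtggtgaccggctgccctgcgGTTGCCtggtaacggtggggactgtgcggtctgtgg
Ift27: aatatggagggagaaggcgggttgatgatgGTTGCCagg
Ift140: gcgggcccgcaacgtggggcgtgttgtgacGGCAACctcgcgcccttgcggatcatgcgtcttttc
Kif17: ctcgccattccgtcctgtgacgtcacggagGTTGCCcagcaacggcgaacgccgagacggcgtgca
Kif3a: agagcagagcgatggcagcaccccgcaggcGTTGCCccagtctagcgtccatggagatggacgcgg

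They lie at chr16:49699204-49699269 (plus strand), chr15:78174082-78174120 (minus strand), chr17:25015947-25016012 (plus strand), chr4:138262148-138262213 (plus strand) and chr11:53567241-53567306 (plus strand), in that order, upstream of each start and each read on the gene's own strand. The Ift57 stretch holds the arm at 87 and at 60 bases before the start. The fuller form, GTTNCC followed after at most 3 bases by GGNAAC, was found in 1 of the 48 promoters, that of Ift57, and in 1.06% of array genes. Members' promoters had a median GC content of 60.3% and those of array genes 58.7%. Among promoters with GC content between 56.6% and 67.8%, the middle range of the members, 12 of 24 members held the arm, against 15.1% of 5808 array genes. A match describes the letters in this window and is not evidence of binding.

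Between shMiwi and shCaf1, 5 kinesins passed the test in limma and 0 of 18 IFT and dynein-2 genes did, 5 of which had an unadjusted p under 0.05. Kif2a and Kif1c were higher with shMiwi, by 1.51-fold and 1.73-fold, and Kif27, Kif1b and Kif2c were lower, by 1.60-fold, 1.54-fold and 1.42-fold. The comparison used limma on log2(signal + 16) across the 27022 probe sets above the filter, and 54 of the 58 genes were tested. Calls made up 9.26% of the tested members against 7.09% of all probe sets tested, 3.70% of members higher against 3.70% of all, and 5.56% lower against 3.39% of all. These shares lie near the background. The median difference was -0.04 over the tested members and 0.02 over all probe sets tested. The largest difference in value that did not pass was that of Kif26a, a kinesin without motor activity, at 1.29 ± 0.44 (limma adjusted p = 0.111), from dim signals of 83 and 21 against 139 and 123.

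**Figure D2:**
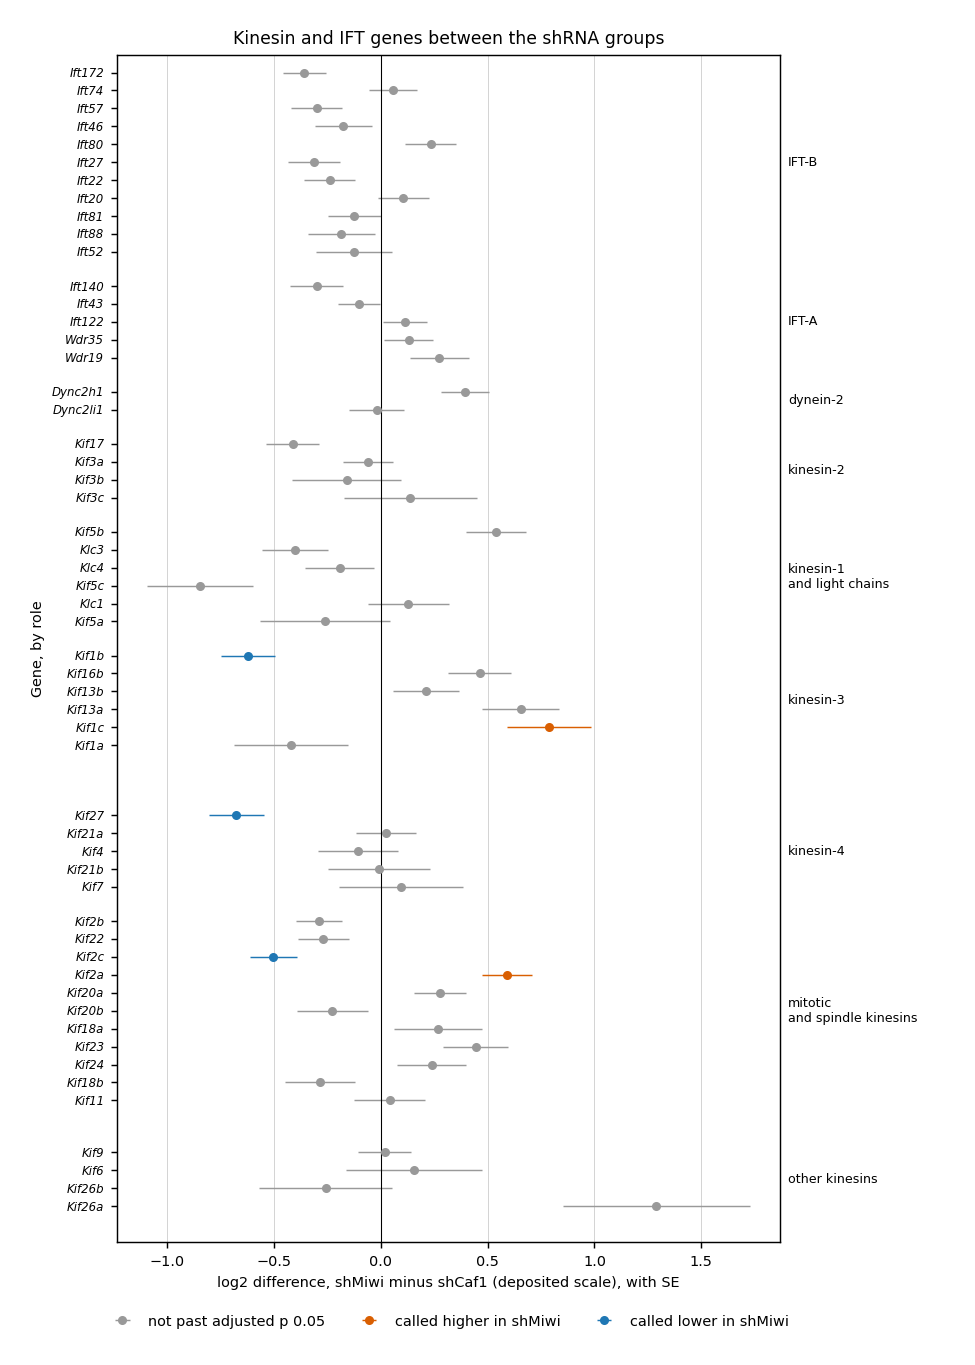
Log2 difference between shMiwi and shCaf1 for each tested member, with its standard error, grouped by role. The 18 IFT and dynein-2 genes lie between -0.36 and 0.39, and the 5 kinesins that passed lie between 0.50 and 0.79 in absolute size.

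Kif2a and Kif2c are kinesin-13 proteins, which shorten microtubules from their ends, and they moved in opposite directions. Kif2a read 2560 and 2406 with shCaf1 and 3572 and 3926 with shMiwi. It rose by 0.59 ± 0.12 on the log2 scale (limma adjusted p = 0.0263). Another Kif2a probe set read 1208 and 1071 against 1625 and 1704 and also passed, at 0.54 (limma adjusted p = 0.0445), while its other tested probe sets were at 0.50 and 0.13 and did not. Kif2c, also known as MCAK, read 5579 and 5180 with shCaf1 and 3855 and 3728 with shMiwi, a fall of 0.50 on the log2 scale (SE 0.11; limma adjusted p = 0.0332). Its other probe sets did not pass and differed in sign, and among them the probe set at 0.04 read 3212 and 3501 against 3436 and 3484. The third gene of that family, Kif2b, read 6858 and 7218 against 5486 and 6047, and its difference of -0.29 ± 0.11 did not pass.

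Kif27 is a kinesin-4 motor related to the Hedgehog regulator Kif7 and linked to motile cilia. It read 2417 and 2529 with shCaf1 and 1651 and 1440 with shMiwi. The fall of 0.68 on the log2 scale (SE 0.13; limma adjusted p = 0.0224) rests on its only probe set. Kif7 itself read 206 and 159 against 262 and 143, at 0.09, with overlapping groups. Kif21a, another kinesin-4, read 1475 and 1494 against 1364 and 1668 and did not differ by its brightest probe set (0.02 ± 0.14), but another of its probe sets passed at 0.74 (limma adjusted p = 0.0314).

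Kif1b and Kif1c are kinesin-3 cargo motors, the former moving mitochondria and vesicles and the latter vesicles between Golgi and cell edge. Kif1b read 1751 and 1745 with shCaf1 and 1175 and 1091 with shMiwi, a fall of 0.62 on the log2 scale (SE 0.13; limma adjusted p = 0.0285). Its 5 other tested probe sets ranged from -0.16 to 0.58 and none passed, so the fall belongs to its brightest probe set. Kif1c read 162 and 181 with shCaf1 and 288 and 329 with shMiwi, a rise of 0.79 ± 0.20 (limma adjusted p = 0.0469). Its other probe sets were at 0.26, 0.59 and 0.27 and did not pass. Kif13a, an endosome motor of the same family, read 212 and 207 against 334 and 343 and missed the threshold at 0.65 ± 0.18 (limma adjusted p = 0.0627). Kif16b, also a kinesin-3, did not pass by its brightest probe set, at 0.46 ± 0.15 (limma adjusted p = 0.0957). Another of its probe sets read 371 and 365 against 610 and 562 and passed at 0.65 (limma adjusted p = 0.0451), and a dim further probe set was at -0.07.

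**Figure D3:**
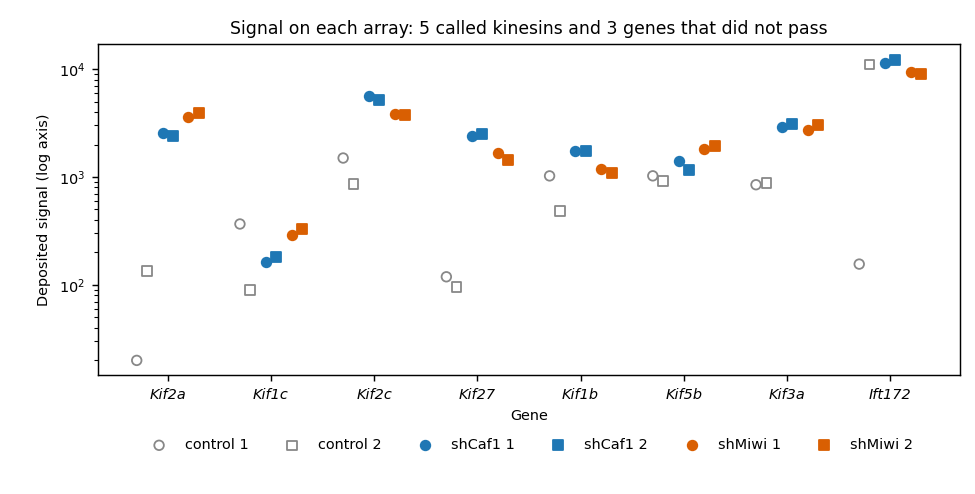
Signal on each of the 6 arrays (log axis) for the 5 kinesins that passed between shMiwi and shCaf1 and for Kif5b, Kif3a and Ift172, which did not. Kif27, Kif1b and Kif2c are lower on both shMiwi arrays than on both shCaf1 arrays, and Kif2a and Kif1c are higher on both.

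These calls rest on 4 arrays and lie close to the threshold. Without shCaf1 array 1 none of the 5 passed (limma adjusted p 0.0820 to 0.196) and Kif26a alone did, and without shCaf1 array 2 no member passed (0.133 to 0.174 for the 5), with 10 at an unadjusted p under 0.05. Without shMiwi array 1, 10 members passed, the 5 included, and without shMiwi array 2, 5 passed and Kif1c was lost (limma adjusted p = 0.120). With a variance prior that does not depend on signal, no member passed (limma adjusted p 0.131 to 0.169 for the 5), with 12 at an unadjusted p under 0.05. The direction of all 5 held under each scaling tried, but scaling on the hybridization controls, under which the median probe set stood at 0.39 in place of 0.02, left Kif27, Kif1b and Kif2c at -0.28, -0.23 and -0.11, short of the threshold. It called 16 members higher and 0 lower, and 7155 probe sets higher and 261 lower in place of 1000 and 916. Centring each array on its median called 0 members higher and 3 lower, with 552 and 1049 over all probe sets.

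Transcripts of the labelled cell type moved in the same comparison. Of 10 elongating spermatid markers 9 were lower with shMiwi and 0 higher, against 3.39% lower and 3.70% higher of all probe sets tested. The 9 included Akap4, a scaffold of the sperm tail's fibrous sheath (-0.98, limma adjusted p = 0.00355). None of the 10 markers was at 0 on any array. Their summed signal was 183970 and 201010 with shCaf1, 131134 and 122938 with shMiwi and 2807 and 702592 in the controls. Of 7 round spermatid markers 2 were lower, and 0 of 7 pachytene spermatocyte markers passed. Among somatic markers 1 of 6 for Sertoli cells (Wt1), 1 of 4 for Leydig cells (Cyp11a1) and 1 of 4 for myoid cells (Myh11) were higher with shMiwi, 0 of 5 macrophage and 0 of 5 endothelial markers passed, and none was lower. These marker counts are on the deposited scale. Scaling on the hybridization controls moved the median probe set from 0.02 to 0.39, and the marker counts are not given on that scale. A shift in cell composition and a change of RNA per cell cannot be told apart in sorted bulk cells. The 3′ to 5′ signal ratio of Actb, a measure of RNA integrity, was 2.87 and 4.69 with shCaf1 and 2.05 and 3.01 with shMiwi. On control arrays 1 and 2 it was 0.69 and 14.5. The same ratio of Gapdh was 0.72 and 5.11 there and 0.81 to 1.73 on the shRNA arrays. The part of cell stage and RNA integrity in the members' differences was not tested.

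Against the control vector, the members' calls depended on which probe set stood for a gene. Taking the probe set brightest on the shRNA arrays favours higher values with shRNA, so the counts are given for these and for the members' other probe sets, with no reading of their balance. With shMiwi 19 of 52 tested members passed (36.5%), 17 higher and 2 lower, against 43.2% of all probe sets tested (16.9% higher and 26.4% lower). With shCaf1 18 of 52 passed (34.6%), 16 higher and 2 lower, against 41.5% of all (15.5% higher and 26.0% lower). The median difference of the members was 1.25 with shMiwi and 1.30 with shCaf1, and that of all probe sets tested was -0.20 and -0.25. Of the members' 51 other tested probe sets, 3 were higher and 12 lower with shMiwi, with a median of 0.08, and 3 were higher and 11 lower with shCaf1, with a median of -0.05. Over all 103 tested probe sets of the members, 20 were higher and 14 lower with shMiwi, and 19 were higher and 13 lower with shCaf1. Both comparisons use the same 2 control arrays. Kif12, Kif14, Kif15, Kif28, Kif5a and Kif26a were below the filter on all 6 arrays' mean and were not tested.

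By their brightest probe sets, a choice that favours higher values, 7 of the 18 IFT and dynein-2 genes were higher with shMiwi and 6 with shCaf1. Of all probe sets tested, 16.9% and 15.5% were higher. By the same choice 0 of the 18 were lower, against 26.4% and 26.0% of all. Ift74 read 279 and 93 in the controls and rose by 4.95 ± 0.56 with shMiwi and 4.89 ± 0.56 with shCaf1 (limma adjusted p = 0.00511 and 0.00601). Ift57 read 301 and 306 in the controls and rose by 3.84 ± 0.34 and 4.14 ± 0.34, and Wdr35 read 429 and 217 and rose by 4.42 ± 0.45 and 4.29 ± 0.45. In these probe sets both controls lay far below every shRNA array. By percentile the controls lay at the 48.3rd and 32.3rd for Ift74, the 49.7th and 60.3rd for Ift57 and the 58.2nd and 50.2nd for Wdr35. Control signals at such ranks are dim, so the sizes of these rises are uncertain. The other Ift57 probe set, at 345 and 288 in the controls and 35 to 44 with shRNA, was lower, at -2.48 with shMiwi and -2.65 with shCaf1 (limma adjusted p = 0.00828 and 0.00814). Ift81 was also split: its brightest probe set was higher, at 3.18 and 3.31, and another was lower in both comparisons, at -3.47 with shMiwi. That Ift81 probe set read 416 and 527 in the controls and 28 to 49 with shRNA. The arrays' median signals were 305 and 216 in the controls and 70.7 to 79.9 with shRNA, so part of both falls is shared with the median probe set. Ift20, at 848 and 691 in the controls, rose by 1.32 ± 0.34 and 1.22 ± 0.34. Dync2h1, at 1052 and 84, passed with shMiwi (3.70 ± 1.11; limma adjusted p = 0.0455) but not with shCaf1 (3.30 ± 1.11; limma adjusted p = 0.0641); the difference between the shRNA groups is the 0.39 given above, which did not pass.

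For other IFT genes the controls disagreed widely in the brightest probe set, and no difference of these probe sets passed. Ift172 read 156 in control 1 and 10998 in control 2, Ift140 1950 and 10590, Ift122 65 and 2822 and Ift27 99 and 2486. The control 2 values of Ift172, Ift140 and Ift27 lie within the shRNA range, and those of control 1 lie below it. For Ift122 both controls lie below every shRNA array. Another Ift27 probe set, at 1566 and 1071 in the controls and 368 to 578 with shRNA, was lower with both. Its difference was -1.74 with shMiwi and -1.19 with shCaf1 (limma adjusted p = 0.0156 and 0.0478). The light chain Klc3 had the widest gap of all members, 39 and 3793, or 86.7 percentile points. For 10 of the 58 genes, Dync2h1 included, the controls lay more than 50 percentile points apart. Ift46 and Ift22 read 2629 and 3293, and 2416 and 4256, in the controls, and Ift88 read 1380 and 593. None of these 3 genes passed with either shRNA.

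Among the kinesins' brightest probe sets, that of Kif2a had the largest rise, from 20 and 135 in the controls, at 5.67 ± 0.71 with shMiwi and 5.08 ± 0.71 with shCaf1 (limma adjusted p = 0.00574 and 0.00752). These control signals lay at the 1.7th and 39.2nd percentile. A signal of 20 is close to the added constant of 16, so the size of this rise depends on that constant. The 3 other tested Kif2a probe sets did not pass, at 0.96, 1.51 and 0.45 with shMiwi and 0.42, 1.39 and -0.05 with shCaf1, and with the probe set chosen over all 6 arrays Kif2a was not called in either comparison. Kif2b, at 113 and 586 in the controls, rose by 4.37 ± 0.77 and 4.66 ± 0.77. Kif27, at 119 and 96 (the 30.8th and 32.9th percentile), rose by 3.66 ± 0.33 and 4.33 ± 0.33. The flagellar motor Kif9, at 628 and 554, rose by 2.53 ± 0.35 and 2.51 ± 0.35, and the IFT motor Kif3a, at 848 and 876, rose by 1.73 ± 0.34 and 1.79 ± 0.34, though its 3 other probe sets did not pass. Kif3b, its partner, read 463 and 801 and did not pass by its brightest probe set, at 0.36 ± 0.48 and 0.52 ± 0.48. Another Kif3b probe set, at 1002 and 485 in the controls and 133 to 217 with shRNA, was lower with both. Its difference was -1.72 with shMiwi and -2.25 with shCaf1 (limma adjusted p = 0.0305 and 0.0151). Kif17 read 1482 and 10502, on either side of the shRNA arrays. Kif5b, at 1025 and 913, was at 0.94 ± 0.34 and 0.40 ± 0.34 by its brightest probe set, without passing. Another Kif5b probe set, at 72 and 13 in the controls and 473 to 1303 with shRNA, was higher with both. Its difference was 4.16 with shMiwi and 3.51 with shCaf1 (limma adjusted p = 0.00902 and 0.0147).

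The 6 tested members with the most negative differences from the controls, by their brightest probe sets, were kinesins. Kif21b, a kinesin-4 motor known from neurons, read 912 and 719 in the controls, 270 and 208 with shCaf1 and 283 and 195 with shMiwi, and fell by 1.72 on the log2 scale with shMiwi and by 1.71 with shCaf1 (SE 0.38 for each; limma adjusted p = 0.0186 and 0.0198). Kif1a, the synaptic vesicle motor, read 317 and 346 in the controls, fell by 1.47 with shMiwi (limma adjusted p = 0.0289) and was at -1.04 with shCaf1 (limma adjusted p = 0.0775). Kif3c, at 482 and 876, fell by 1.68 with shCaf1 (limma adjusted p = 0.0482) and was at -1.54 with shMiwi (limma adjusted p = 0.0593). Another Kif3c probe set, at 1838 and 1797 in the controls and 62 to 157 with shRNA, was lower with both, at -4.40 with shMiwi and -3.74 with shCaf1 (limma adjusted p = 0.00400 and 0.00558). Kif6, at 204 and 472, was at -1.46 ± 0.55 and -1.62 ± 0.55. Kif7, at 1074 and 265, was at -1.39 ± 0.73 and -1.49 ± 0.73, and Kif26b, at 612 and 119, was at -1.65 ± 0.80 and -1.39 ± 0.80. The last 3 did not pass. The standard errors pool all 6 arrays. The median replicate difference of the members was 1.19 in the controls against 0.139 and 0.172 with shRNA, so a pooled error understates the spread of the controls. With only the 4 arrays of a comparison fitted, Kif21b, Kif1a and Kif3c were not called. By percentile within the array, Kif21b lay at the 82.1st and 82.6th in the controls and between the 64.4th and 68.5th with shRNA. Kif1a lay at the 50.8th and 64.3rd in the controls and between the 53.3rd and 61.7th with shRNA, and Kif3c at the 61.6th and 85.7th against the 60.7th to 69.3rd, so the ranks of these probe sets of Kif1a and Kif3c overlapped where their signals did not.

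**Figure D4:**
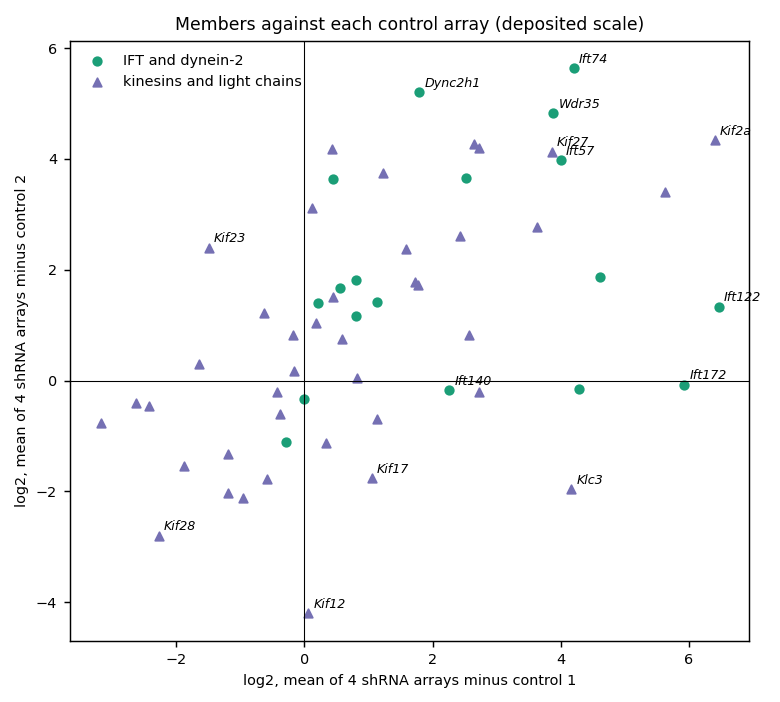
Mean log2 signal of the 4 shRNA arrays minus control array 1 (horizontal axis) and minus control array 2 (vertical axis) for the brightest probe set of each of the 58 genes. Of these, 31 lie above both controls and 13 below both, while 9 lie above control 1 and below control 2 and 5 the reverse.

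The control comparisons depend on which control is used and on the scale. Without control 1, 44 members passed with shMiwi (32 higher, 12 lower) and 42 with shCaf1 (31 and 11); without control 2, 40 passed with shMiwi (31 and 9) and 42 with shCaf1 (32 and 10). Without either shMiwi array no member passed against the control with shMiwi (16 without array 1 and 13 without array 2 at an unadjusted p under 0.05), and without either shCaf1 array none passed with shCaf1 (15 and 14). The other shRNA group enters only through the shared error. Fitting the 4 arrays of a comparison without it gave 11 calls in each comparison, 11 higher and 0 lower. On the hybridization-control scale, which moved the median of all probe sets to 3.58 with shMiwi and 3.15 with shCaf1, these 6 kinesins turned positive, Kif21b to 2.82 and 2.46 and Kif1a to 2.38 and 2.45, and 54 members were higher and 0 lower with either shRNA. Quantile normalization, which moved both medians to 0.48, called 5537 probe sets higher and 3973 lower with shMiwi and 5293 and 3753 with shCaf1, and turned Kif1a to 0.23 with shCaf1. Of the elongating spermatid, round spermatid and pachytene markers, the median percentile in control 1 was 29.0, 21.7 and 17.7, and in control 2 it was 99.5, 81.2 and 56.7, and the part of these gaps in the members' differences was not tested.

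Other genes of the same machinery were listed by function. Of 11 further IFT subunits listed under other symbols, 0 passed in limma between shMiwi and shCaf1 (2 at an unadjusted p under 0.05), and 7 were higher with shMiwi and 6 with shCaf1 against the control (16.9% and 15.5% of all probe sets), by probe sets also chosen for brightness with shRNA. Ttc21b, an IFT-A subunit, read 6090 and 4979 with shCaf1 and 6504 and 6522 with shMiwi, and Kifap3, the subunit that joins Kif3a and Kif3b, read 2488 and 2800 against 2661 and 2822. Among 9 dynein-2 intermediate and light chains, Dynll2, shared with other dyneins, was lower with shMiwi (-0.38; limma adjusted p = 0.0462). Of 12 tested other kinesin-like genes and partners, Kidins220, a kinase D substrate, was higher with shMiwi (0.67; limma adjusted p = 0.0249).

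Lists of neighbouring functions are read against the 3.39% of all probe sets that were lower with shMiwi and the 7.09% called either way. Of 11 BBSome genes, whose products ride on IFT trains, Bbs5 was lower with shMiwi (-0.48; limma adjusted p = 0.0424), and of 17 tested transition zone genes, which guard the base of the cilium, Rpgrip1 was (-0.54; limma adjusted p = 0.0411). Of 29 tested manchette genes, Fam161a, a microtubule-binding protein, was lower, from 2807 and 2944 with shCaf1 to 1362 and 1362 with shMiwi (-1.07; limma adjusted p = 0.00391). Of 28 tested tubulin genes and tubulin-modifying enzymes 6 were lower and 0 higher, including Ttll3 (-0.83) and Ttll9 (-0.75), ligases that add glycine or glutamate to tubulin. Scaled on the hybridization controls, Ttll9 was at -0.36 and Fam161a at -0.67. In limma none of 19 cytoplasmic dynein and dynactin genes passed (6 at an unadjusted p under 0.05), nor did any of 7 tested ciliary transcription factors (2).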

How the data were processed

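RNA was amplified, biotin-labelled with a 3′ IVT Express kit and hybridized to Affymetrix Mouse Genome 430 2.0 arrays, per the labels' protocols. The authors deposited linear signal intensities computed with MAS5, per the submitters' processing notes; no version is given in the sources used here. In the deposited values each array's mean, trimmed by 2% at either end, is 500. Probe sets were named by the platform annotation, and all 58 members matched RefSeq by gene ID. Promoter sequences are RefSeq's, of GRCm38.p6.

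The log2 of signal + 16 was fitted with limma 3.58.1 in R 4.3.3 (lmFit, eBayes with an intensity trend, Benjamini-Hochberg over all probe sets tested, threshold 0.05). The shMiwi against shCaf1 comparison used the 4 shRNA arrays, and the control comparisons used all 6. Probe sets above the 40th percentile of mean signal over the fitted arrays were tested. A gene is given by its probe set with the highest mean over the shRNA arrays. Errors printed after ± are moderated standard errors of the log2 difference. In them eBayes draws the variance of each probe set toward the trend over all probe sets tested, so they are not the observed replicate spread of a gene. The number of arrays limits the precision: 2 residual degrees of freedom in the first fit and 3 in the second.

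The scripts were tested on simulated data in which every array, the controls included, had the spread of the shRNA arrays. That test therefore cannot show the error rate of the control comparisons. Named genes were the members called between the shRNA groups, a fixed list of motor and IFT genes, the 6 highest and 6 lowest by percentile, the 4 largest differences of each sign between the shRNA groups and the 6 largest of each sign against the control, plus up to 2 called genes per related list and direction; Ttc21b, Kifap3, the other probe sets and further members named for their role were chosen after their values were seen. The members and lists were chosen with earlier results of these data known. The replicate numbers mark no stated pairing, so the fits carry no block. The alternatives tried cover the constant, the filter, the scaling, the variance prior, the choice of probe set, the samples fitted and each array left out.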

Additional observations from a re-analysis of the deposited data

How the results depend on the processing

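The count of members called between shMiwi and shCaf1, 5 as reported, was 5 with a constant of 1 or 64 and 4 with quantile normalization, but 1 with no filter, 8 with the filter at the 60th percentile, 3 with median centring, 16 with hybridization control scaling, 0 without the intensity trend (12 at an unadjusted p under 0.05) and 0 in the contrast from limma over all 6 arrays (0 at an unadjusted p under 0.05). Leaving out each array gave 0 to 10. Kif2a fell to 0.13 with the probe set chosen by the mean of all 6 arrays. Against the control, the counts of 19 (shMiwi) and 18 (shCaf1) became 54 and 54 with hybridization control scaling and 11 and 11 when only the 4 arrays compared were fitted; leaving out each array gave 0 to 44 and 0 to 42. Hybridization control scaling reversed the negative differences of Kif21b (2.82 with shMiwi and 2.46 with shCaf1), Kif26b (2.16 and 2.08), Kif3c (2.73 and 2.22), Kif1a (2.38 and 2.45), Kif6 (2.22 and 1.72) and Kif7 (2.96 and 2.50), and quantile normalization that of Kif1a with shCaf1 (0.23). The causes were not tested. The members' median percentile of 85.7 was 75.1 over 1 probe set per gene and 85.2 to 86.0 without each array.

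With the replicate number as a block, 17 members were called between shMiwi and shCaf1, the 5 reported among them, and 17 and 16 were called against the control. The labels give only the numbers: deviations of same-numbered arrays correlated at 0.18 between shCaf1 and shMiwi, 0.06 between control and shCaf1 and 0.0040 between control and shMiwi.

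With 2 arrays per group and signals normalized by the authors to a common mean, small differences and changes in total RNA are beyond what these values can show.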
